A study of Mus musculus with 34 samples.

Results

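The binding sites described here are those of p65 and PDX1 in Beta-TC6, a β-cell line of the mouse that makes insulin, with the genotype Bmal1-/- and given the cytokine IL-1β. They were mapped by ChIP-seq, in which chromatin is pulled down with an antibody and the DNA that comes with it is sequenced. The p65 list held 16162 peaks and the PDX1 list 8095, together 24257 of the 174035 peaks in the 10 lists of the series. A p65 peak and a PDX1 peak were called shared where they overlapped by at least 1 bp. This gave 3545 shared pairs, in each of which a p65 peak met a single PDX1 peak, and left 12617 p65 peaks without PDX1 and 4550 PDX1 peaks without p65. Each factor was immunoprecipitated in 3 of the 34 samples, but the deposited lists hold 1 value per peak and group and none per replicate. No difference could therefore be set against replicate spread, and no test between conditions was made. Intervals in brackets are Wilson 95% intervals and cover counting error only.

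The groups set beside these were knockout cells without IL-1β, wild-type cells with IL-1β and wild-type cells without it, each with 3 p65 and 3 PDX1 samples, and a SIN3A list from 2 samples of wild-type cells given a control siRNA. Every culture had been synchronised by a 10 µM forskolin pulse of 1 h. Not given in the sources used here are the dose and time of IL-1β, whether the knockout is a single clone, whether a group's samples were separate cultures, and whether they were pooled before peaks were called. The lists carry no RNA value, so the loss of Bmal1 could not be checked. For the PDX1 samples with IL-1β, in both genotypes, the antibody label reads p65 while the titles read PDX1, and the titles were followed. Of the 100 PDX1 peaks with the highest tag counts in knockout cells with IL-1β, 100 also had a PDX1 peak in knockout cells without IL-1β, where the antibody label names PDX1, and 100 had one in wild-type cells without IL-1β. A p65 peak of wild-type cells with IL-1β stood at 93 of them. Of the 100 highest p65 peaks, 14 had a PDX1 peak in knockout cells without IL-1β.

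NF-κB is held in the cytoplasm by IκB proteins until a signal such as the IL-1 receptor's leads to their degradation. Its p65 subunit (RELA) then enters the nucleus and activates inflammatory genes, among them the genes of its own inhibitors. PDX1 is a homeodomain protein on which the β-cell's identity rests, and it binds the insulin gene and other secretory genes. BMAL1, encoded by Arntl, is an activator of the core circadian clock.

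Listed genes whose promoter lay under a peak show what sequence each class covered. The sequences are RefSeq windows of 300 bases on GRCm38.p6, the assembly of mm10, from 250 bases before to 50 after a transcription start, and are printed 5′ to 3′ on the gene's strand. Capitals mark GGAANNNCC, a core form of the NF-κB site, and TAAT, the core that homeodomain proteins recognise, on either strand. The first 4 are the windows of listed genes that overlapped a shared pair, the next 4 are those of listed genes with the highest p65 peaks without PDX1, and the last is the window of a listed gene with PDX1 and no p65.
Ins1, chr19:52264047-52264346, plus strand: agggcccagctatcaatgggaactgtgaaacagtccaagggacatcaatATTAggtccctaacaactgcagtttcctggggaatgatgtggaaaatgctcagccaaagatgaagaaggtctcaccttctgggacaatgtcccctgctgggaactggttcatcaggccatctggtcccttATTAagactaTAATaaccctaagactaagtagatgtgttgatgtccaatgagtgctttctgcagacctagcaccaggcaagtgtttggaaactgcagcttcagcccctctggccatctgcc
Iapp, chr6:142298175-142298474, plus strand: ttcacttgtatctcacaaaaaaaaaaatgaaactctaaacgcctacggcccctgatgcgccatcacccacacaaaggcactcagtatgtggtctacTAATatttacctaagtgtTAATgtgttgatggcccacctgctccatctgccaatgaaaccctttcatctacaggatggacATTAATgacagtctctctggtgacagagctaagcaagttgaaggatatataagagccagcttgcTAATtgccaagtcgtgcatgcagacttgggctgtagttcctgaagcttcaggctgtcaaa
G6pc2, chr2:69219699-69219998, plus strand: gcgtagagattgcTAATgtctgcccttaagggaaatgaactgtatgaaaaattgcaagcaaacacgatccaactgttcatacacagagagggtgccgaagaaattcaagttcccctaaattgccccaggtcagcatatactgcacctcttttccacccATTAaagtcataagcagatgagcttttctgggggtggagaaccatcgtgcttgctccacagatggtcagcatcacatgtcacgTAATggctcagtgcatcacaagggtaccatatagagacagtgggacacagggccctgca
Myt1, chr2:181766779-181767078, plus strand: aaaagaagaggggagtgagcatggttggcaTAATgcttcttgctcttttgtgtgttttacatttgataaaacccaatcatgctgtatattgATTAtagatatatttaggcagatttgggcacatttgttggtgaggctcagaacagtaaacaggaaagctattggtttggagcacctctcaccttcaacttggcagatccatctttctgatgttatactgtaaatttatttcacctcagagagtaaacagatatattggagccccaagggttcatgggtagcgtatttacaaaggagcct
Tnfaip3, chr10:19015361-19015660, minus strand: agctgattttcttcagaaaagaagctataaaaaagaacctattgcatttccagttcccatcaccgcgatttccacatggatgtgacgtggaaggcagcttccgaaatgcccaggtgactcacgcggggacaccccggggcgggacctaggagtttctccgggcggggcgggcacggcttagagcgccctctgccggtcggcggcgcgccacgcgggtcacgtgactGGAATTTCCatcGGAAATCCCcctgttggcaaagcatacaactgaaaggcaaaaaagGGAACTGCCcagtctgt
Cxcl10, chr5:92348840-92349139, minus strand: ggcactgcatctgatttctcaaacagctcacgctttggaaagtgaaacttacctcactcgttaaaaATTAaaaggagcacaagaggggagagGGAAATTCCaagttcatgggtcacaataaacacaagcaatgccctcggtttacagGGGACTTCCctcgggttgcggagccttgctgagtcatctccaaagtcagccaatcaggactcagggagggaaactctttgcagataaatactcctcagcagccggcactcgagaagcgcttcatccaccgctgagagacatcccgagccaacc
Nfkb2, chr19:46304487-46304786, plus strand: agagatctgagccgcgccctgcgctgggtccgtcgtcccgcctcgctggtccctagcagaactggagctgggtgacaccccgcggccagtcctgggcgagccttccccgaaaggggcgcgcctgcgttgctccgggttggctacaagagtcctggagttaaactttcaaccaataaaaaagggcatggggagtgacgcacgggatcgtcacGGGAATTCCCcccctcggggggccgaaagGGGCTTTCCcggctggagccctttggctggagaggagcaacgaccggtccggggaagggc
Nfkbia, chr12:55492598-55492897, minus strand: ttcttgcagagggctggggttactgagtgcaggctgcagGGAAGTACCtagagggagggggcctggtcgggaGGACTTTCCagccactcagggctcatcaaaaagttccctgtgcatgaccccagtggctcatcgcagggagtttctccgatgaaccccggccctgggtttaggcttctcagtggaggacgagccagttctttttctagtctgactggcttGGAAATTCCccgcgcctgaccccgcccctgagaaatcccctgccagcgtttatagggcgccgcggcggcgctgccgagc
Rfx6, chr10:51685268-51685567, plus strand: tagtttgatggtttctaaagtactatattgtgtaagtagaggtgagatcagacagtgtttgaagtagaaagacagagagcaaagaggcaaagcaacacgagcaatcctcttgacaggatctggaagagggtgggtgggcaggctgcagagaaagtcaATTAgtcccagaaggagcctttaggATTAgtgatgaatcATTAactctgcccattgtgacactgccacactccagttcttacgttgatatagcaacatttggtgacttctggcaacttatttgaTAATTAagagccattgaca

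The 4 shared windows held no GGAANNNCC. They held TAAT 3 times at Ins1, an insulin gene, 5 times at Iapp, which encodes the co-secreted peptide amylin, 3 times at G6pc2, the islet glucose-6-phosphatase subunit, and 2 times at Myt1, a zinc finger factor of the endocrine lineage. At Ins1 the p65 peak was centred 9 bp after the start and the PDX1 peak at -34, with 12.7 p65 tags and 22.1 PDX1 tags (tags per 10 M sequenced tags, the authors' normalised count, used for every peak below). At Iapp the centres lay at -132 and -128, with 15.4 p65 tags and 35.8 PDX1 tags. The nearest gene body to the Iapp pair is that of Slco1a5, so Iapp is not counted by the gene rule used below.

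In the p65 windows without PDX1, GGAANNNCC occurred 3 times each at Tnfaip3 and Nfkbia and 2 times at Cxcl10. At Nfkb2 3 matches fell in 2 stretches, since those starting at -39 and -38 read a single stretch on both strands. Tnfaip3 encodes A20, a deubiquitinase that restrains NF-κB, and its promoter carried the highest p65 peak of the list, with 265 tags and a centre at -24, where a match also begins. Cxcl10, a T-cell-attracting chemokine, had 164.7 p65 tags, Nfkb2, the p100 precursor, 162.4, and Nfkbia, the inhibitor IκBα, 154.5. The Cxcl10 peak lies inside the body of Art3 and is counted there. At Rfx6, an islet endocrine factor, PDX1 had 29.9 tags, and the window held TAAT 5 times over both strands, 2 of these being the strands of a single TAATTA.

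Over every window, GGAANNNCC was present in 27.5% of the 69 that overlapped a peak of a shared pair, 40.8% of the 1557 with p65 and no PDX1, 14.8% of the 88 with PDX1 and no p65, and 18.5% of all 32817. In the same order TAATTA was in 8.70%, 2.38%, 27.3% and 5.30%, and TAAT in 78.3%, 39.6%, 78.4% and 58.0%. Base composition moved with these shares, the median GC content being 50.7%, 62% and 50.7% in the 3 classes and 52.7% in all windows. Among windows of 50 to 60% GC, GGAANNNCC was in 25% of 24 shared, 44.4% of 487 p65, 18.9% of 37 PDX1 and 22.5% of all windows, TAATTA in 8.33%, 3.29%, 21.6% and 2.78%, and TAAT in 70.8%, 59.96%, 72.97% and 55.7%. The extended CTAATTA, which contains TAATTA, was in 5.80%, 1.03%, 12.5% and 2.00% of windows, the CREB site TGACGTCA in 5.80%, 4.62%, 1.14% and 1.79%, and the AP-1 site TGANTCA in 11.6%, 5.39%, 9.09% and 7.81%. These are matches of letters in a window, not measured sites, and windows of alternative starts of a gene overlap. TAAT was added after the other values had been seen.

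The p65 and PDX1 lists were called from 56.6 M and 63.9 M tags against the same input, with thresholds of 21 and 32 tags per peak. Their windows were 231 bp wide for p65, apart from 1 of 209 bp, and 419 bp for PDX1. Of the p65 peaks 21.9% overlapped PDX1 (21.3 to 22.6%), and of the PDX1 peaks 43.8% overlapped p65 (42.7 to 44.9%). Without IL-1β the knockout had 173 p65 peaks, of which 35 overlapped PDX1 (20.2%), and those were 0.420% of its 8339 PDX1 peaks. In wild-type cells with IL-1β 10612 pairs made up 33.8% of 31389 p65 and 27.3% of 38930 PDX1 peaks. In wild-type cells without IL-1β 1749 pairs made up 55.4% of 3157 p65 and 4.37% of 40028 PDX1 peaks. The lists differ in length, and each share depends on the length of the list it is taken from. They also differ in window and threshold. In the knockout without IL-1β windows were 479 bp for p65 and 473 bp for PDX1, with thresholds of 35 and 34 tags. In wild-type cells they were 207 and 227 bp with IL-1β, apart from 1 p65 window of 168 bp, and 207 bp for both without it. Wild-type thresholds were 19 to 22 tags. Each tag count covers its own list's window, so counts of different lists are not like measures. With both lists of the knockout with IL-1β cut to the length of the shorter, 25.1% of each was shared.

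The overlap was close in most pairs. The p65 window lay wholly inside the PDX1 window in 2303 pairs (64.96%), and the centres were within 100 bp of each other in 2397 (67.6%), with a median distance of 65 bp. The pair nearest to the limit on the inside, at Echdc3, overlapped by 3 bp, with 9.36 p65 tags and 20.8 PDX1 tags. The nearest on the outside, at Pde4dip, had adjoining windows with a gap of 0 bp, 16.2 p65 tags and 18.9 PDX1 tags. Few other peaks came this close, since 1.74% of the p65 peaks without PDX1 had a PDX1 peak within 500 bp and 6.40% within 5 kb. For PDX1 peaks without p65 the shares with a p65 peak at those distances were 4.02% and 12.5%.

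Peaks with more tags were more often shared, and the gradient was steeper for PDX1. From the lowest to the highest of 4 equal bins of tag count, 15.4%, 22.1%, 23.6% and 26.6% of p65 peaks overlapped PDX1, and 21.0%, 35.9%, 51.5% and 66.8% of PDX1 peaks overlapped p65. Among the 100 highest peaks the shares were 41% of p65 and 91% of PDX1. The median p65 count was 10.2 tags at shared peaks (interquartile range 6.88 to 18, maximum 205) and 8.83 at p65 peaks without PDX1 (5.83 to 15, maximum 265), a ratio of 1.16. The median PDX1 count was 16.9 tags at shared peaks (12.2 to 23.5, maximum 137.2) and 11.6 at PDX1 peaks without p65 (8.29 to 16, maximum 79.5), a ratio of 1.46. The interquartile ranges of the classes overlapped in each list. With peaks of at least 8-fold over input in both lists, 11.6% of p65 peaks were shared, and the p65 ratio was 1.06, with an interval from the order statistics of both medians of 0.967 to 1.17, against 1.12 to 1.23 over all peaks.

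**Figure D1:**
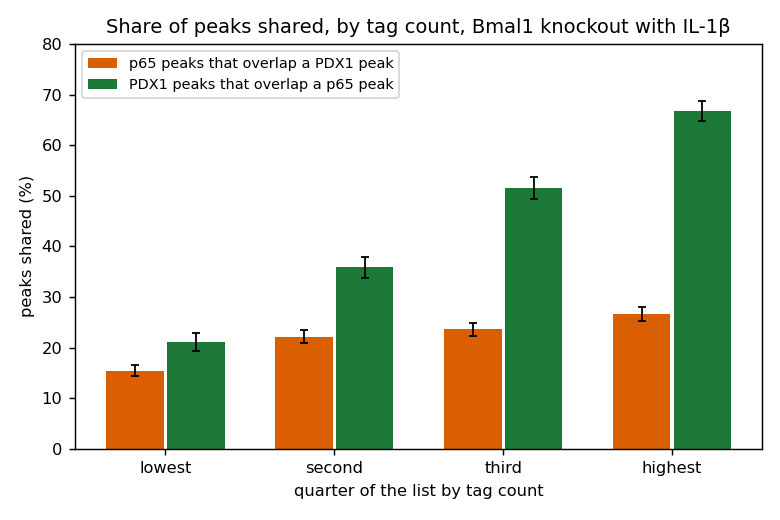
Share of p65 peaks that overlap a PDX1 peak (orange) and of PDX1 peaks that overlap a p65 peak (green), in percent, in 4 equal bins of each list by tag count, with Wilson 95% intervals. The p65 bars run from 15.4 to 26.6% and the PDX1 bars from 21.0 to 66.8%.

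Within the 3545 pairs the p65 and PDX1 counts had a Pearson r of 0.23 and a Spearman rho of 0.43, as a description over sites that share the same libraries and input. p65 had the higher count in 860 pairs (24.3%) and PDX1, counted in its wider window, in most others. The highest PDX1 counts stood with moderate p65 counts. Ube3c, a ubiquitin ligase gene, had 25.6 p65 tags and 137.2 PDX1 tags, Slc30a8, the zinc transporter of insulin granules, had 20.1 and 106.7, and the site near Gm3415 had 15.7 and 102.7. Knockout cells without IL-1β, with p65 windows of 479 bp, had 26.8 p65 tags at Ube3c, 12.9 near Gm3415 and no p65 peak at the Slc30a8 site. The wild-type p65 counts without the cytokine, in windows of 207 bp, were 35.3 at Ube3c, 19.2 at Slc30a8 and 18.6 near Gm3415. Peaks of p65 at these sites were thus not limited to cells given IL-1β.

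The highest p65 counts among the pairs stood with PDX1 counts between 17.1 and 48. Beside Tnf, the cytokine gene, p65 had 205 tags and PDX1 17.1 (chromosome 17, 35199071 to 35199301, 181 bp outside the gene body). Near Ripk2, a kinase that links intracellular bacterial sensors to NF-κB, the counts were 189.2 and 26.3, and in Dip2b 174.8 and 24.9. Ccdc18 followed with 167.5 and 48, Stx8, an endosomal syntaxin, with 157.8 and 27.9, Tmem200a with 149.3 and 22.5, Tenm3, a teneurin adhesion protein, with 148.5 and 31.1, and Spidr, a DNA repair scaffold, with 148.1 and 18.8. Of these 8 sites, the one near Ccdc18 also had a PDX1 peak in knockout cells without IL-1β, with 18.1 tags. In wild-type cells without IL-1β PDX1 peaks stood at 5 of the 8, the exceptions being Tnf, Stx8 and Spidr. Wild-type cells with IL-1β had no PDX1 peak at Tnf and Stx8, though p65 had 319.8 and 322.8 tags there.

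Most shared sites were PDX1 sites without the cytokine too. Of the PDX1 peaks that overlapped p65, 64.4% had a PDX1 peak in knockout cells without IL-1β, and 57.6% of the PDX1 peaks without p65 did. In either control PDX1 list, knockout or wild type, the shares were 89.3% (3165 of 3545) and 90.8%. Of the p65 peaks, 63.8% of the shared and 3.03% of those without PDX1 had a PDX1 peak in knockout cells without IL-1β. PDX1 peaks of the wild-type list with IL-1β stood at 89.8% of the shared p65 peaks and at 21.3% of those without PDX1. In any PDX1 list of the series, 25.04% of the p65 peaks without PDX1 had a peak.

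p65 itself was found again at similar shares of both p65 classes in wild-type cells with IL-1β, at 75.9% of the shared peaks and 79.99% of those without PDX1. Without IL-1β, wild-type p65 peaks stood at 19.4% of the shared and 3.53% of the p65 peaks without PDX1. In the knockout without IL-1β, whose p65 list held 173 peaks, these shares were 1.04% and 0.634%. Of the knockout's shared p65 peaks 2448 (69.1%) lay at a shared p65 peak of wild-type cells with IL-1β, which were 23.1% of the wild-type shared peaks. Of the PDX1 peaks without p65 in the knockout, 27.4% had a p65 peak in wild-type cells with IL-1β. SIN3A, which holds histone deacetylases in a corepressor complex, had a peak at 6.21% of the shared and 8.88% of the p65 peaks without PDX1.

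**Figure D2:**
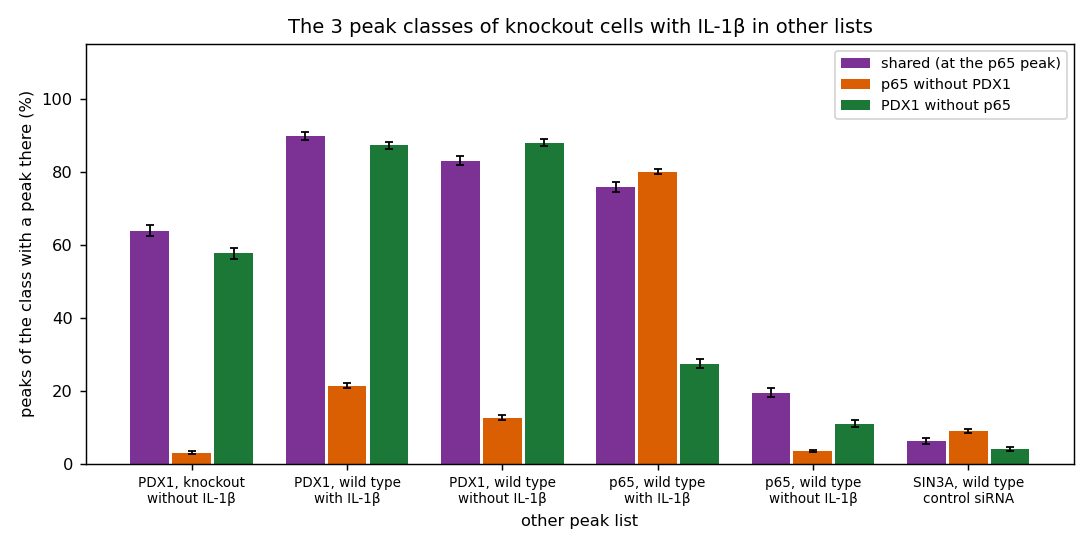
Share of each peak class of knockout cells with IL-1β, in percent, that overlaps a peak of 6 other lists, for shared p65 peaks (purple), p65 peaks without PDX1 (orange) and PDX1 peaks without p65 (green), with Wilson 95% intervals. The p65 peaks without PDX1 stand at 3.03 to 21.3% in the 3 PDX1 lists, and the other classes at 57.6 to 89.8%.

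A smaller set of pairs had no PDX1 peak in either control list. They numbered 380 of 3545 (10.7%). Their median p65 count was 21 tags (interquartile range 9.53 to 39.3) and their median PDX1 count 11.1 (8.76 to 14.7). The 2217 pairs with PDX1 in both control lists had medians of 9.89 p65 tags (6.88 to 15.5) and 20 PDX1 tags (15.2 to 27.7). p65 exceeded PDX1 in 71.6% of the pairs in neither control list and in 11.3% of those in both. Of the 380 pairs, 279 (73.4%) had a PDX1 peak in wild-type cells with IL-1β. The antibody label of that list also reads p65, and the part of p65-bound DNA in these PDX1 peaks was not tested. Across 4 equal bins of pairs by p65 count, from the lowest to the highest, the PDX1 peak was also present in knockout cells without IL-1β in 64.8%, 71.1%, 71.8% and 50%. Across 4 equal bins by PDX1 count the shares differed more, at 32.4%, 57.4%, 75.5% and 92.4%. Pairs with low PDX1 counts were thus the ones most often without a PDX1 peak in that list.

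**Figure D3:**
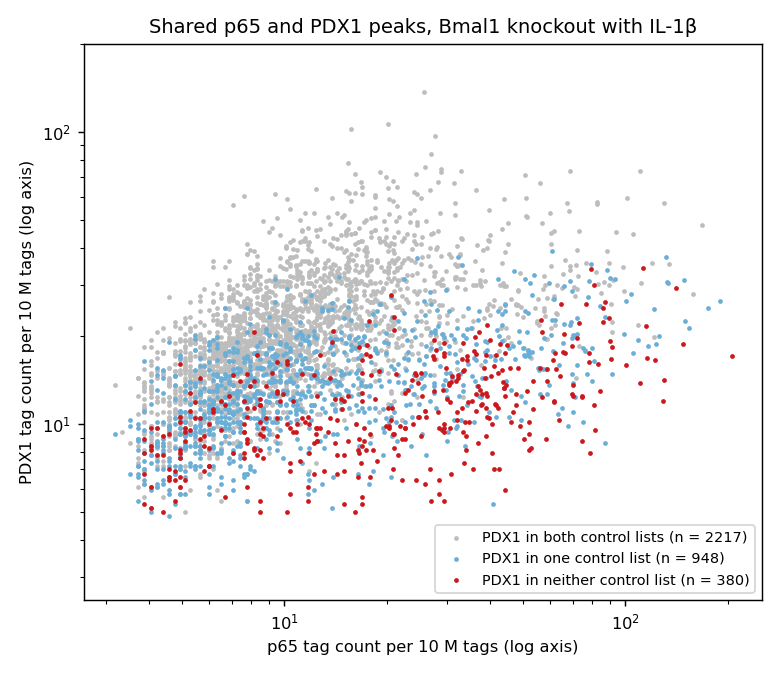
Tag counts per 10 M tags of p65 (horizontal) and PDX1 (vertical), both on log axes, at the 3545 shared pairs, 1 point a pair. Red points, 380 pairs with no PDX1 peak in either control list, lie towards high p65 and low PDX1 counts, and grey points, 2217 pairs with PDX1 in both control lists, reach the highest PDX1 counts.

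The position relative to genes separated p65 peaks with and without PDX1. No farther than 1 kb from either end of a protein-coding gene lay 100 shared p65 peaks (2.82%) and 2214 p65 peaks without PDX1 (17.6%). Start and end of a gene were not told apart, since the gene table gives no strand. Promoter windows were overlapped by 57 shared p65 peaks (1.61%) and 1291 without PDX1 (10.2%). The gap was present at every p65 level, with 2.41%, 2.46%, 2.73% and 3.45% of shared and 15.8%, 18.2%, 17.3% and 19.1% of other p65 peaks near a gene end from the lowest to the highest bin of tag count. Farther than 50 kb from any gene body lay 26.96% of the shared p65 peaks and 16.4% of the others.

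PDX1 peaks were distal in both classes. Near a gene end stood 2.63% of the shared PDX1 peaks and 2.84% of the PDX1 peaks without p65, and beyond 50 kb 26.99% and 31.5%. Read the other way, p65 peaks within 1 kb of a gene end overlapped PDX1 in 4.32% (3.57 to 5.23%), those elsewhere in a gene body in 24.4%, those outside but within 50 kb in 20.3% and those beyond it in 31.5% (29.9 to 33.2%). The median p65 count of these 4 positions was between 8.65 and 9.36 tags.

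**Figure D4:**
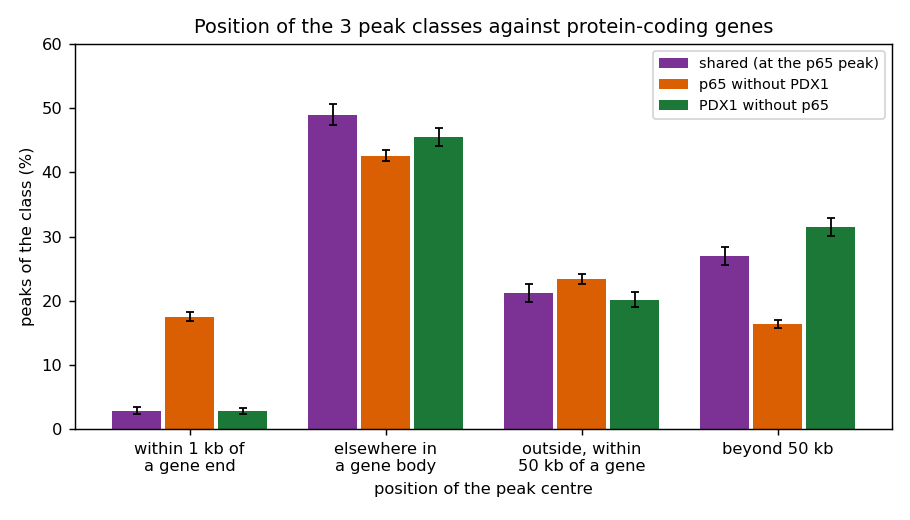
Position of peak centres against protein-coding gene bodies, in percent of each class, for shared p65 peaks (purple), p65 peaks without PDX1 (orange) and PDX1 peaks without p65 (green), with Wilson 95% intervals. Within 1 kb of a gene end the bars are 2.82%, 17.6% and 2.84%.

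Peaks were assigned to the nearest protein-coding gene body within 50 kb. The assigned peak nearest to this limit lay 49983 bp from its gene and the first beyond it 50001 bp. Of 21883 genes, 7065 (32.3%) had a p65 peak, 3491 (16%) a PDX1 peak and 1901 (8.69%) a shared peak. Of the genes with p65, 26.9% had a shared peak. With at least 8-fold over input in both lists 707 genes had one. A shared pair went to the gene of its p65 centre, and in 4 pairs the PDX1 centre belongs to another gene, so the PDX1 classes do not add up to the genes with PDX1. Both factors at different peaks were found at 802 genes (3.66%), p65 alone at 4362 and PDX1 alone at 790 (3.61%). Genes with a shared peak were long, with a median of 78.9 kb against 17.2 kb for all genes, and 1448 of them had 1 shared peak, 309 had 2 and 144 at least 3. The genes with the most were Robo2, an axon guidance receptor gene, with 8, and Agap1, Auts2, Cdh13 and Rad51b with 7 each, all between 440 and 1555 kb long. Counts by gene list below are not adjusted for length. For a gene with more than 1 shared pair, tags are those of the pair with the highest p65 count, unless others are named.

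Regulators of NF-κB had p65 nearly throughout, and those with p65 had a shared peak about as often as all genes with p65, at 30% against 26.9%. Of 21 inhibitors and subunits 20 had a p65 peak (95.2%), 7 a PDX1 peak (33.3%) and 6 a shared one (28.6%). At Tnfaip3 p65 had peaks of 265, 141.2 and 59.1 tags, and the last, 19442 bp outside the gene, was shared with 27.1 PDX1 tags. At Nfkbia p65 had 5 peaks of 197.4, 154.5, 71.1, 11.3 and 7.06 tags, and the lowest was the shared one, with 14.7 PDX1 tags, 25762 bp away. Nfkbiz, which encodes the nuclear IκBζ, had 2 shared sites. The one with more p65 stood out by its p65 count of 128.9 against 12 PDX1 tags, with no PDX1 peak there in the other lists. At Cyld, another deubiquitinase that restrains the pathway, the counts were 39.2 and 24.9. Zc3h12a, an RNase that degrades cytokine messages, had 9 and 12.7, and Tnip1, an A20 partner, 7.24 and 10.8.

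Among the p65 sites of that list without PDX1 were Nfkbib, an IκB, with 118.6 tags, Nfkbie, another, with 106.4, and Relb, a partner subunit, with 102. Nfkb1, the p105 precursor, had p65 with 74.9 tags and PDX1 with 20.2 tags at different peaks. The strongest p65 sites without PDX1 in the whole list lay at Tnfaip3 (265 tags), Lama1, a laminin chain (201.1), Nfkbia (197.4), Junb, an AP-1 subunit (182.5), Zzef1 (181.7), Art3 by the Cxcl10 promoter (164.7), Dap (162.9) and Nfkb2 (162.4). In wild-type cells with IL-1β the sites of Lama1, Zzef1 and Dap had PDX1 peaks of 19.4, 28.5 and 46.8 tags, and the other 5 had none.

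The share of cytokine, chemokine and adhesion genes with a shared peak, 8.70%, was close to that of all genes, 8.69%. Of those with p65 13.3% had one, against 26.9% of all genes with p65. The genes of the list were short, with a median of 4.74 kb. Of these 23 genes 15 had p65 (65.2%, against 32.3% of all genes) and 2 PDX1, both of them shared. Beside Tnf, described above, this was Csf1, the macrophage growth factor, with 60.6 p65 tags and 41.5 PDX1 tags. Ccl20, Icam1, Ccl2 and Cxcl1 had p65 without PDX1, at 45.4, 38.8, 24.9 and 23.1 tags for their highest peaks. Of 16 genes of IL-1 receptor signalling 11 had p65 (68.8%) and 2 a shared peak (12.5%). The 2 were the receptor Il1r1 (30 p65 tags, 29.1 PDX1 tags) and Irak3, a kinase-like brake of the pathway (37.2 and 24.4). Of 8 inflammatory enzyme genes 6 had p65 (75%) and 1 a shared peak (12.5%). This was Gch1, which makes the cofactor of nitric oxide synthase (14.7 and 30.8). Nos2, the inducible nitric oxide synthase, had 101.7 p65 tags without PDX1. Of 16 interferon and antigen presentation genes 7 had p65 (43.8%) and 2 a shared peak (12.5%). Among the 2 was Irf1, an interferon-responsive transcription factor (10.6 p65 tags, 11.6 PDX1 tags). B2m and Ikbkg had a p65 peak in their promoter window that the gene rule gives to neighbours.

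Genes of the β-cell had both factors and often at the same site, as did those of other islet cells described below. Of 35 insulin and secretion genes 25 had p65 (71.4%), 19 PDX1 (54.3%) and 16 a shared peak (45.7%). Of all genes 32.3%, 16% and 8.69% did. The genes of the list were long, with a median of 40.2 kb against 17.2 kb for all genes. Of those with p65 64% had a shared peak, against 26.9% of all genes with p65. Ero1b, which oxidises folding proinsulin, had the highest p65 count, 90.9 tags with 25.7 PDX1 tags. Scg2, a granule protein, had 58.1 and 29.9 at a site 41993 bp outside the gene body. Abcc8, the sulfonylurea receptor, had 2 shared sites, of 26.8 and 12.7 p65 tags with 34.9 and 21 PDX1 tags, while its highest p65 peak, 88.8 tags, had no PDX1. Sytl4, the granule docking protein granuphilin, had 25.8 and 11.1. Cpe, which trims prohormones, had 16.6 and 46.8, and Slc2a2, the glucose transporter GLUT2, 13.6 and 25.2.

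Of these 16 genes 13 had PDX1 at their strongest pair in knockout cells without IL-1β, and 15 in either control list, Sytl4 being the exception. At the Slc30a8 site the knockout had 106.7 PDX1 tags with IL-1β and 127.3 without it, and wild-type cells had 132.8 with IL-1β and 123.3 without it. These counts were taken in windows of 419, 473, 227 and 207 bp, in that order. p65 was found there in wild-type cells too, with 23.9 tags with IL-1β and 19.2 without it. Ins1 had a further pair 11537 bp from the gene, with 10.4 p65 tags and 26.6 PDX1 tags. No p65 or PDX1 peak was assigned to the other mouse insulin gene, Ins2.

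Of 24 β-cell transcription factor genes 19 had p65 (79.2%), 15 PDX1 (62.5%) and 8 a shared peak (33.3%). Of all genes 32.3%, 16% and 8.69% did. The 8 are 42.1% of the 19 with p65, against 26.9% of all genes with p65. Of the 8 pairs with the highest p65 count at each gene, 4 had a PDX1 peak in a control list and 4 had none. Other pairs were not counted here, and St18, Pdx1 and Pax6 had 2 shared peaks each. Without one were St18, with 51.9 p65 tags and 17.8 PDX1 tags, Pdx1, with 47.7 and 11.6, Mnx1, with 21 and 23.2, and Pax6, with 17.8 and 9.23. With IL-1β each of these 4 sites carried both factors in wild-type cells too, and at the Pdx1 site the wild-type counts were 97.3 p65 tags and 25.7 PDX1 tags. With one were Mlxipl, the glucose-responsive ChREBP, with 31.6 and 31.8, Rfx6 with 22.6 and 20.3, Myt1 with 15.7 and 27.4, and Glis3 with 9.89 and 19.4. The Rfx6 site lay 38160 bp outside the gene body.

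The Pdx1 gene thus had 2 shared sites of different kinds. The one 22738 bp outside the gene body had the higher p65 count and no PDX1 peak without IL-1β in either genotype (chromosome 5, 147247244 to 147247474). The other, 5932 bp away (147264050 to 147264280), had 13.2 p65 tags and 25.5 PDX1 tags in the knockout with IL-1β. Without IL-1β its PDX1 counts were 39.3 for the knockout and 73.8 for wild-type cells, in windows of 473 and 207 bp. A further p65 peak of 8.30 tags without PDX1 lay 1904 bp away. At 5 factor genes p65 and PDX1 stood at different peaks. Onecut1 had 58.4 p65 tags and 10.3 PDX1 tags, Nkx2-2 28.4 and 8.76, Rfx3 12.4 and 57.1, Isl1 10.6 and 11.3, and Foxa2 5.83 and 7.82. Such genes of the secretion list were Cacna1d, a calcium channel subunit (16.8 p65 tags, 26.6 PDX1 tags), Chga, chromogranin A (10.1 and 26.4), and Snap25, a fusion protein of granules (9.53 and 6.73). These are the highest peaks of each factor at the gene. The nearest p65 and PDX1 windows were 95 bp apart at Rfx3 and 18 bp apart at Snap25, just outside the overlap that counts as shared, and at least 1550 bp apart at the other 6. Nkx6-1, which maintains the β-cell state, had PDX1 alone, 47.4 tags. Of 11 genes of other islet cells 6 had p65, 5 PDX1 and 4 a shared peak (36.4%), against 8.69% of all genes. That is 66.7% of those with p65, against 64% for insulin and secretion genes. All 4 had PDX1 in knockout cells without IL-1β. They were the hormone genes Sst (14.7 p65 tags, 44.3 PDX1 tags) and Pyy (20.3 and 40.8), and the factor genes Hhex (10.2 and 24.7) and Irx2 (4.94 and 17.1). Their shared sites lay outside the gene bodies, by 15422 bp at Pyy, 17468 bp at Hhex, 27587 bp at Irx2 and 46812 bp at Sst.

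PDX1 peaks without p65 were highest in Oxr1, an oxidative stress resistance gene (79.5 tags), Fam184b (64.8), Epb41l3, a membrane skeleton protein (63.5), Pclo, the presynaptic scaffold Piccolo (60.2), and Rfx3 (57.1, with a p65 window 95 bp away), followed by Sh3glb1 (56.6), the region of Olig3 (51.6) and Pcx, pyruvate carboxylase (48.4). All 8 had PDX1 in knockout cells without IL-1β, from 59 to 119.3 tags. At 7 of the 8, the exception being Epb41l3, wild-type cells with IL-1β also had a p65 peak, of 18.5 to 34.7 tags.

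The remaining lists had shared peaks at shares closer to the 8.69% of all genes, of which 32.3% had p65. Of 23 core clock genes 12 had p65 (52.2%), 5 PDX1 (21.7%) and 3 a shared peak (13.0%). The shared peaks had 11.7 p65 tags and 15.6 PDX1 tags at Nfil3, a repressor of clock output. They had 10.2 and 16.7 at Clock, the partner of BMAL1. Rora, an activator of Arntl, had 5 shared peaks, and the one with most p65 had 7.59 and 6.73. Arntl itself had 4 p65 peaks, from 5.47 to 55.8 tags, and a PDX1 peak of 14.6 tags elsewhere, none of them shared. Nr1d2, which encodes the repressor REV-ERBβ, had p65 without PDX1 at 96.4 tags. Of 21 immediate early genes 18 had p65 (85.7%) and 3 a shared peak (14.3%). The shared peaks lay near Jun (59.8 p65 tags, 30.5 PDX1 tags), Ier5 (17.1 and 11) and Klf4 (15 and 20.2). Fos (15.2 and 10.5) and Klf6 (7.41 and 8.29) had both factors at different peaks. Of 21 endoplasmic reticulum stress and apoptosis genes 12 had p65 (57.1%) and 3 a shared peak (14.3%). Among the 3 were the stress sensor genes Atf6 (17.1 p65 tags, 19.9 PDX1 tags) and Ern1 (10.9 and 17.7). Bbc3, which promotes cell death (61.6 and 11.1), Eif2ak3, the kinase PERK (47.7 and 13), and Bcl2, which prevents cell death (5.12 and 12.5), had the factors at different peaks. Of 19 SIN3 and HDAC complex genes 10 had p65 (52.6%) and 1 a shared peak (5.26%), Rbbp7 (7.59 and 13.5).

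Of 25 markers of other lineages 9 had p65 (36%), 3 PDX1 (12%) and 3 a shared peak (12%). These shares were near the 32.3%, 16% and 8.69% of all genes. Pecam1, an endothelial adhesion molecule, had 133.5 p65 tags and 30.4 PDX1 tags, Mbp, a myelin protein, 11.8 and 10, and Alb, albumin, 7.41 and 10.2. Peaks mark occupied DNA and say nothing here of whether a gene was expressed.

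**Figure D5:**
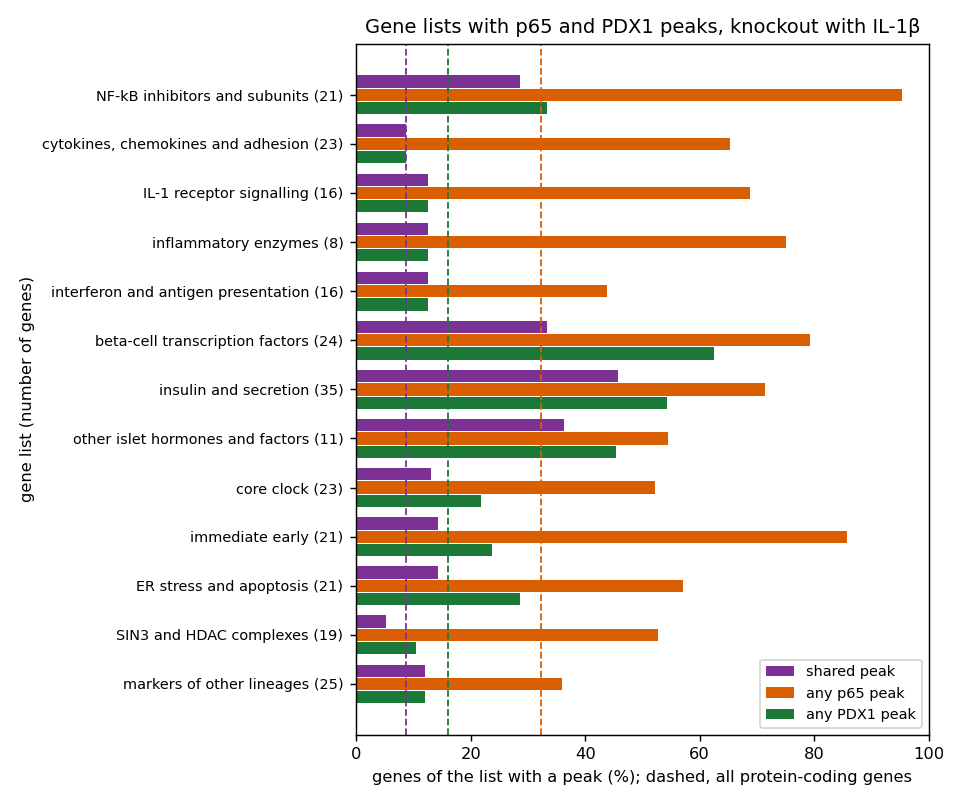
Percent of the genes of each of 13 lists with a shared peak (purple), any p65 peak (orange) and any PDX1 peak (green) in knockout cells with IL-1β, with the number of genes in brackets and dashed lines at 8.69%, 32.3% and 16% for all protein-coding genes. The purple bar is highest for insulin and secretion genes, at 45.7%, and the orange bar for NF-κB inhibitors and subunits, at 95.2%.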

How the data were processed

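Each group has a single peak list, deposited by the authors. HOMER findPeaks was run in factor style, per the file headers, at a false discovery rate of 0.001, with at least 4-fold over input and over the local 10 kb, each at a p-value of 0.0001. Bowtie2, HOMER and mm10 are named in the submitters' processing notes, without versions. The signal of a peak is its tag count per 10 M tags, a scaling by the authors that the file headers state. The peak score and the fold over input were used as deposited, to describe peaks, and are the authors' own values.

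Overlap was 1 bp or more. Wilson intervals came from SciPy 1.17.1 in Python 3.11. Each peak centre went to the closest gene body within 50 kb, out of 21883 protein-coding ones (RefSeq, GRCm38.p6, no strand), and 7 p65 and 5 PDX1 peaks on sequences without a gene table got no position. Overlap, assignment and motif search were checked on simulated intervals. Motifs were to be read from peaks, but no genome was used, so RefSeq promoter windows, which cover 197 of 263 listed genes and do not include every chromosome, took their place. The loosest of the planned NF-κB motifs is not reported here.

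The members, the 13 gene lists and the alternatives were chosen with earlier results of these data known. By rule the text names the 4 genes per list with the strongest shared peaks, the 8 strongest peaks of each class, the 5 genes with most shared peaks, listed genes with both factors at different peaks, and Nfkbia, Tnfaip3, Pdx1, Ins1, Ins2 and Arntl. Some genes that the rule names are not reported here. Other listed genes named were chosen after their values were seen.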

Additional observations from a re-analysis of the deposited data

How the results depend on the processing

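Shares of overlapping peaks moved with the rule. For p65 the share, 21.9%, became 16.0% with a reciprocal overlap of 50%, 14.8% with centres within 100 bp, 23.3% with edges within 500 bp, 11.6% with at least 8-fold over input in both lists and 25.1% with both lists at the length of the shorter. For PDX1 the share, 43.8%, became 32.0%, 29.6%, 46.1%, 39.7% and 25.1% in the same order. With the PDX1 list of knockout cells without IL-1β in place of that with it, an alternative chosen after seeing the data, the shares were 16.4% of p65 and 31.7% of PDX1 peaks. Genes with a shared peak numbered 707 at 8-fold, where fewer peaks enter, against 1901, and 1494 to 2070 in the other 3 alternatives. The ratio of median p65 counts, 1.16 (1.12 to 1.23), became 1.06 at 8-fold, where its interval of 0.967 to 1.17 includes 1, and in the other 2 alternatives it was 1.16 and 1.18. The ratio for PDX1, 1.46, was 1.45 to 1.496 in its 3 alternatives. The cause of these moves was not tested. No paired analysis was possible because the lists hold no value per replicate, and leaving out a replicate was not run for the same reason. The windows of 231 and 419 bp and the thresholds of 21 and 32 tags limit which sites count as shared, and a site without a peak may hold signal under the threshold.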
